A study of Mus musculus with 3 samples.

Results

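NF-kB is a family of transcription factors that inflammatory signals switch on within minutes, and 10 genes it is known to drive were followed here in the lung epithelium of the mouse embryo: Nfkbia, Nfkbiz, Nfkb1, Tnfaip3, Tnfaip2, Birc3, Relb, Irf1, Sod2 and Cxcl16. They form a list of response genes, chosen by name with earlier results of these data known, and each of the 10 was found by its Ensembl identifier under the same symbol in all 3 gene tables, among 30406 genes shared by them. Icam1, an adhesion molecule that leukocytes bind and itself a known NF-kB target, is given beside them because the study sorted cells on its protein.

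Cells came from lungs of C57/B6 embryos at E14.5, pooled from 2 pregnant females, digested with dispase, collagenase and DNase at 37°C, and sorted. No transgene, drug or infection is named for any group. 2 libraries hold Epcam+ Icam+ cells (replicates 1 and 2), carrying both the epithelial surface protein Epcam and Icam1, and 1 library holds Epcam+ cells taken without the second gate. RNA was read as unique molecules (UMIs) with a droplet 3' assay: the totals were 74170599 UMIs for replicate 1, 67843828 for replicate 2 and 84460347 for Epcam+ cells, from which 3271, 3052 and 2902 cells were kept. Nothing in the labels ties the 3 libraries to separate pools of lungs, so p-values measure the spread between libraries, which may be technical. The Epcam+ sort has 1 library. P-values between sorts, also where sort contrasts are compared between cell types, thus rest on the spread between the 2 Epcam+ Icam+ libraries. The sort also goes with other differences between libraries (software version, gene table and set of barcodes), so the sort and these cannot be told apart. Pairs of libraries shared 3, 0 and 1 barcodes.

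In resting cells NF-kB subunits such as p50, made from Nfkb1, sit in the cytoplasm bound to IkB alpha, the product of Nfkbia. Signals from TNF, interleukin-1 or Toll-like receptors destroy IkB alpha and free the subunits to enter the nucleus, where Nfkbia itself is one of the first genes they turn on, so the pathway brakes itself. In developing lung epithelium the pathway is best known from responses to inflammation, and in macrophages from the response to microbes and damaged tissue.

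The genes lie on 8 chromosomes of mm10 by the GENCODE vM21 annotation, and all are protein-coding: Nfkbia at chr12:55489410-55492647, Nfkbiz at chr16:55811375-55838899, Nfkb1 at chr3:135584655-135691547, Tnfaip3 at chr10:19000910-19015657, Tnfaip2 at chr12:111442469-111455018, Birc3 at chr9:7848699-7873186, Relb at chr7:19606217-19629438, Irf1 at chr11:53770014-53778374, Sod2 at chr17:13006846-13040063 and Cxcl16 at chr11:70453983-70459984. On the opposite strand, an annotated gene in at least 1 of the gene tables overlaps Tnfaip2, Irf1, Cxcl16 and Icam1. The partner of Irf1 is in the Epcam+ table only.

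Promoters (250 bases before to 50 after a start site) were found for 6 of the 10 genes and Icam1 in RefSeq's table for GRCm38.p6, with 8 promoters for the 6 genes. The kappaB consensus, the 10-base site NF-kB dimers bind, was read on both strands and occurred in 5 of the 8 promoters, against 8.46% of 32851 mouse promoters of this length. The shorter GGANNTTCC, which can overlap it, occurred in 3 of the 8, against 4.26%. The promoters of Nfkbia, Tnfaip3, Sod2 and Icam1 are shown, 5′ to 3′ on the gene's strand with matches in capitals, because these are the inhibitors, a target with a UMI in 77.3% to 80.8% of epithelial cells before thinning, and the gene of the sort:
Nfkbia, chr12:55492598-55492897, minus strand: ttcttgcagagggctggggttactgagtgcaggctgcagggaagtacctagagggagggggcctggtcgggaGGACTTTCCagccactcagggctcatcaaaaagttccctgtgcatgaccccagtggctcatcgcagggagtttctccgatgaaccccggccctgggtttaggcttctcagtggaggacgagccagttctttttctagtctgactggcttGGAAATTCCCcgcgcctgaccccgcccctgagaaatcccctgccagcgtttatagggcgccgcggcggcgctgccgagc
Tnfaip3, chr10:19015361-19015660, minus strand: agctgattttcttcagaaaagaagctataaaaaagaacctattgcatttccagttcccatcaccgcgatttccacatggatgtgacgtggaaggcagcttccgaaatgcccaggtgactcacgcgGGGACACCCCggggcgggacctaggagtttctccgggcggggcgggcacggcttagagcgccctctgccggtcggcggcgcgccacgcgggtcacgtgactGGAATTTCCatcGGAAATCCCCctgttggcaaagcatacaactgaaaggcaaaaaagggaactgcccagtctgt
Sod2, chr17:13007589-13007888, plus strand: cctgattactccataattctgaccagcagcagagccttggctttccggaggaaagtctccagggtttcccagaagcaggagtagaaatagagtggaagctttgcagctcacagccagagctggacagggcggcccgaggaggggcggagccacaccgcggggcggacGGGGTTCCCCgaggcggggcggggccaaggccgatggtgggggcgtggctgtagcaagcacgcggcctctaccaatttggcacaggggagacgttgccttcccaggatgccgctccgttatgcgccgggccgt
Icam1, chr9:21015690-21015989, plus strand: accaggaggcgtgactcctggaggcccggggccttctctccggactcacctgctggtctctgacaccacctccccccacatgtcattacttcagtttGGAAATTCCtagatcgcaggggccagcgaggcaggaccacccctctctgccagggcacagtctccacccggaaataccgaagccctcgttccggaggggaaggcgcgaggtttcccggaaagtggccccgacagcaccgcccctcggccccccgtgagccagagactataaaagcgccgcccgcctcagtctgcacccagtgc

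Nfkbia held matches beginning 29 and 178 bases before its start site and Tnfaip3 beginning 12, 24 and 125 bases before. Sod2 held 1 beginning 83 bases before, and Icam1 held the shorter motif beginning 153 bases before. The Birc3 promoter in the table held neither. A match says which letters are there, not that a factor binds them.

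Cells were clustered within each sort and named by marker genes. Epithelial cells numbered 2247, 2030 and 2568 in Epcam+ Icam+ replicates 1 and 2 and the Epcam+ library. Among them, tip-like cells (the distal bud, with surfactant genes) numbered 225, 226 and 700, airway-like cells 344, 321 and 391, and alveolar type 1-like cells, the flat gas-exchange lineage, 493, 435 and 0. The 0 reflects the naming rule and is not evidence that the Epcam+ library lacks this lineage: 1 unnamed cluster there, of 401 cells with Clic3 among its leading genes, had 3 alveolar type 1 markers raised, and at Leiden resolution 2 the Epcam+ library held 241 cells of the class, against 445 and 375. The remaining 1185, 1048 and 1477 epithelial cells took no name. Macrophage-like cells, 499, 463 and 114, passed sorts on an epithelial protein, and they held epithelial RNA: Epcam stood at 170.4, 139.1 and 399.0 CPM (UMIs scaled to the same total for every group of cells) in them, against 1047, 1035 and 957.9 CPM in the epithelium. The epithelium held little macrophage RNA in turn, with the complement gene C1qb at 9.48, 7.59 and 4.67 CPM against 2665, 2719 and 1456 CPM. The part of carried RNA was not tested, and results that rest on macrophages are given also for the 269, 262 and 23 macrophage-like cells without a UMI of Epcam, Cdh1, Nkx2-1 or Sftpc.

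The response genes were at far higher levels in macrophage-like cells than in epithelium. Between the cell types, with library as a block, 9 of the 10 genes were higher in macrophage-like cells and 0 lower (edgeR's quasi-likelihood F test, Benjamini-Hochberg adjusted over all genes tested), where 54.0% of all genes tested differed, 25.6% higher and 28.4% lower. The median log2 difference of the 10 genes was 2.62, against -0.09 over all 14412 genes.

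Among the inhibitors that feed back on the pathway, Nfkbia in epithelium stood at 68.1 CPM in Epcam+ Icam+ replicate 1, 67.0 in replicate 2 and 122.3 in the Epcam+ library, and in macrophage-like cells at 331.7, 395.0 and 461.7 CPM. Every macrophage value lies above every epithelial one, with a log2 difference of 2.50 (SE 0.20, 95% interval 1.99 to 3.01, adjusted p = 0.000787, edgeR). After each cell was thinned to 3000 UMIs, 15.1%, 13.9% and 23.9% of epithelial cells held an Nfkbia UMI, against 53.2%, 60.5% and 63.1% of macrophage-like cells. Without thinning these shares were 49.8%, 49.9% and 73.2%, against 90.4%, 90.5% and 93.9%.

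Nfkbiz, which encodes the nuclear IkB zeta that adjusts target choice, stood at 43.7, 41.3 and 19.5 CPM in epithelium and 163.9, 189.8 and 150.1 CPM in macrophage-like cells, a log2 difference of 2.59 (SE 0.17, adjusted p = 0.00039, edgeR). Tnfaip3 encodes A20, an enzyme that takes ubiquitin off signalling complexes and so ends the signal. It was scarce in epithelium, at 1.90, 1.78 and 0.598 CPM from 90, 77 and 43 UMIs, and stood at 55.0, 62.8 and 12.4 CPM in macrophage-like cells, a log2 difference of 5.10 (SE 0.25, adjusted p = 0.000124, edgeR). For these feedback genes no epithelial library reached a macrophage value.

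Tnfaip2, a TNF-induced gene of membrane protrusions, showed the widest gap. Epithelium held 23, 27 and 26 UMIs in all (0.484, 0.623 and 0.362 CPM), and macrophage-like cells stood at 50.2, 61.1 and 23.4 CPM, a log2 difference of 6.70 (SE 0.26, adjusted p = 5.1e-05, edgeR). The epithelial level was 0.965%, 1.02% and 1.55% of the macrophage level for Tnfaip2 and 3.45%, 2.83% and 4.80% for Tnfaip3, whereas for C1qb it was 0.356%, 0.279% and 0.321%. Over C1qa, C1qb, C1qc, Pf4 and Tyrobp, all high in macrophage-like cells, this share ran from 0.184% to 0.481%, below both genes in each library. These genes cover other leukocytes only in part. In mast and basophil-like cells Tyrobp stood at 2223, 2816 and 1249 CPM, against 1568, 1625 and 1073 CPM in macrophage-like cells. C1qb stood there at 53.8, 0.0 and 1.53 CPM, against 2665, 2719 and 1456 CPM in macrophage-like cells. In mast and basophil-like cells Tnfaip3 stood at 385.2, 475.6 and 39.8 CPM and Tnfaip2 at 15.1, 0.0 and 0.0 CPM. A cluster led by Lyz2 and S100a4, in the Epcam+ Icam+ libraries only, had Tnfaip2 at 69.9 and 106.9 CPM. Its Tnfaip3 stood at 31.3 and 27.9 CPM. A cluster led by H2-Eb1 and H2-Ab1, 24 cells in replicate 1, had Tnfaip2 at 286.9 and Tnfaip3 at 126.7 CPM. The part of RNA carried from macrophages or other leukocytes in the epithelial levels was not tested. Birc3, an inhibitor of cell death that also marks adaptor proteins with ubiquitin, stood at 1.64, 1.04 and 1.27 CPM in epithelium and 28.3, 28.6 and 12.9 CPM in macrophage-like cells, a log2 difference of 4.35 (SE 0.36, adjusted p = 0.000855, edgeR).

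The 2 subunit genes followed the same order of cell types. Nfkb1, the source of p50, stood at 14.8, 14.1 and 10.3 CPM in epithelium and 183.4, 186.1 and 47.2 CPM in macrophage-like cells (log2 difference 3.47, SE 0.42, adjusted p = 0.00281, edgeR). Relb, the subunit of the slower non-canonical branch, stood at 6.02, 4.78 and 3.52 CPM against 30.1, 30.1 and 15.8 CPM (log2 difference 2.65, SE 0.20, adjusted p = 0.000619, edgeR). Macrophage-like cells of the Epcam+ library were the lowest of the macrophage groups for both subunits and still lay above the epithelium.

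The remaining targets differed less between the cell types. Irf1, a transcription factor shared with the interferon response, stood at 13.9, 14.9 and 13.9 CPM in epithelium and 31.5, 36.8 and 31.0 CPM in macrophage-like cells (log2 difference 1.47, SE 0.15, adjusted p = 0.00164, edgeR). Sod2, the mitochondrial enzyme that clears superoxide, stood at 90.8, 93.0 and 83.2 against 187.9, 199.1 and 118.4 CPM (log2 difference 1.14, SE 0.20, adjusted p = 0.00802, edgeR). It was read in 22.7%, 23.4% and 20.6% of epithelial cells at 3000 UMIs.

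Cxcl16, a chemokine that is also displayed on the cell surface, was the gene that did not pass: 51.8, 50.2 and 31.1 CPM in epithelium against 91.6, 93.9 and 29.2 CPM in macrophage-like cells (log2 difference 0.83, 95% interval 0.13 to 1.53, adjusted p = 0.0523, edgeR). Without the Epcam+ library the difference was 1.21 (adjusted p = 4.29e-11), and with all 3 libraries and macrophage-like cells free of epithelial UMIs it was 1.24 (adjusted p = 7.16e-05). Icam1 ran the other way at 200.5, 193.6 and 164.8 CPM in epithelium and 97.6, 112.1 and 154.4 CPM in macrophage-like cells, and did not pass either (log2 difference -0.40, 95% interval -0.77 to -0.02, adjusted p = 0.073, edgeR). It passed without the Epcam+ library (-0.57, adjusted p = 1.13e-06) and with macrophage-like cells free of epithelial UMIs (-0.59, adjusted p = 0.00571).

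**Figure D1:**
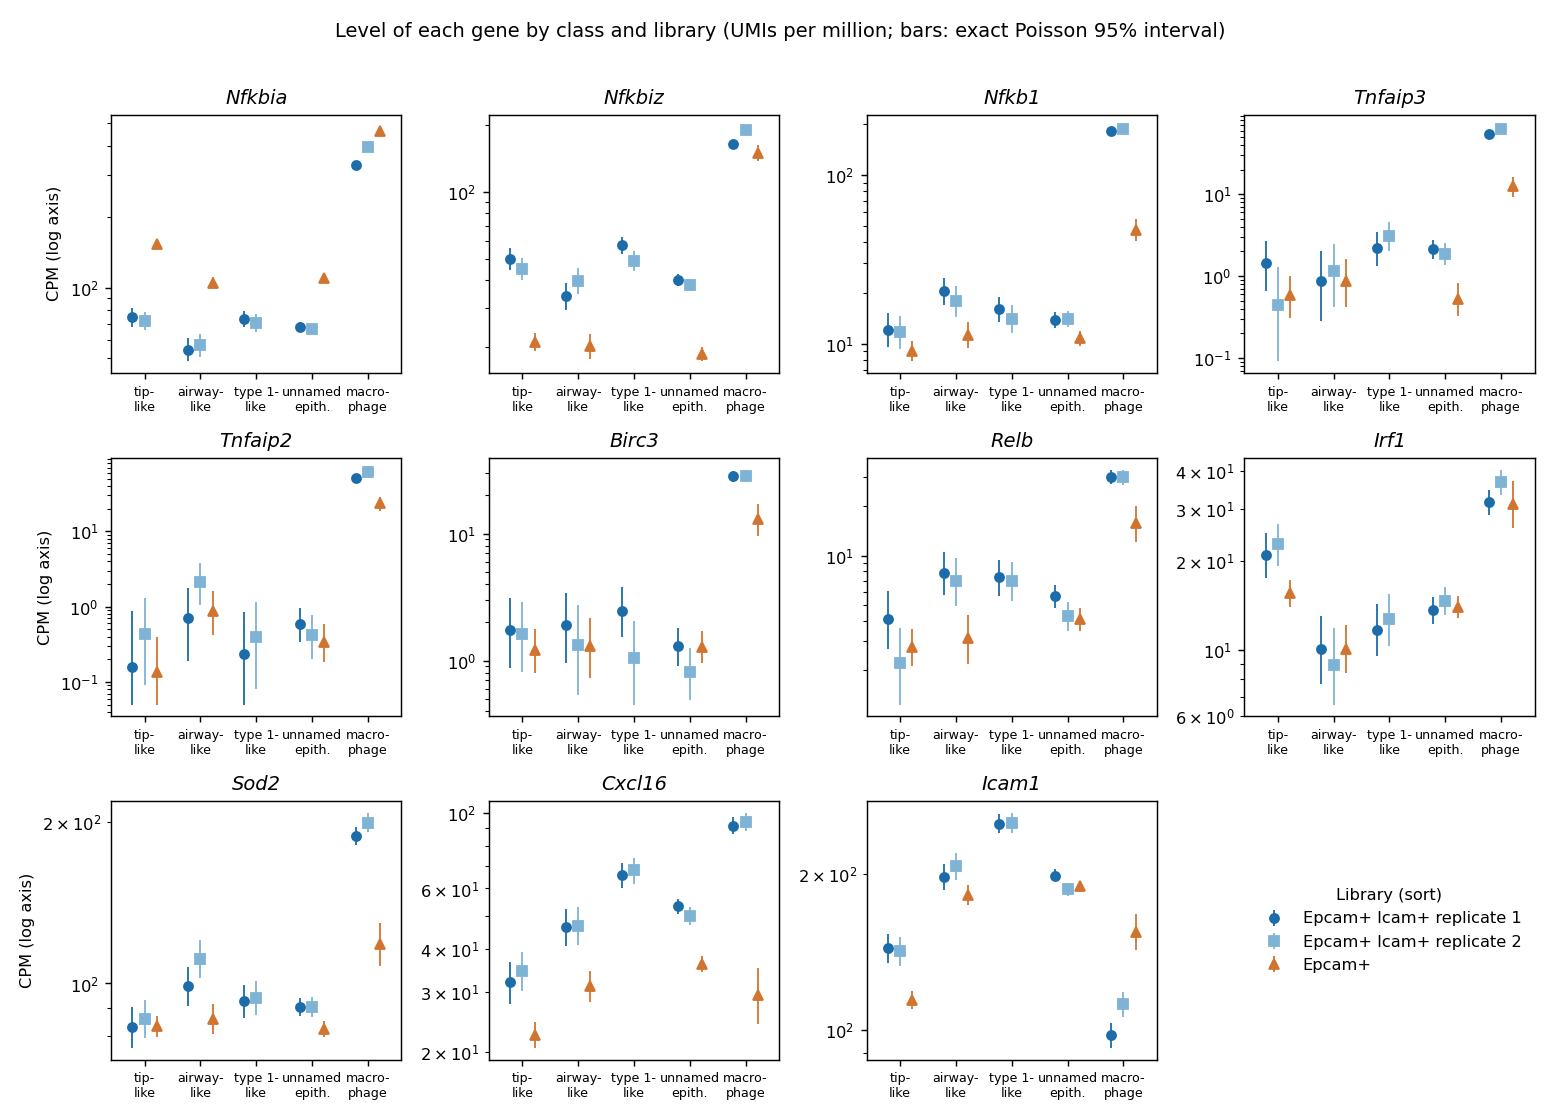
Level of each response gene and of Icam1 (CPM, log axis) in tip-like, airway-like, alveolar type 1-like, unnamed epithelial and macrophage-like cells, 1 point per library, with exact Poisson intervals of counting error that end at the axis where they reach near 0. Macrophage-like cells are highest for Nfkbia in every library (331.7 to 461.7 CPM), and the Epcam+ library is highest for Nfkbia and lowest for Nfkbiz in tip-like, airway-like and unnamed epithelial cells.

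The other genes of the pathway, on lists of 75 genes in all, were mostly higher in macrophage-like cells too. Higher in macrophage-like cells were 13 of 15 receptors and adaptors tested (1 lower), 5 of 7 kinases, 3 of 3 further subunits, 9 of 12 inhibitors, 6 of 6 ligands tested and 21 of 26 other targets tested (1 lower). Rel, the subunit of leukocytes, differed by a log2 of 5.04 (SE 0.14), Nfkb2 by 2.77 (SE 0.32) and Rela by 0.82 (SE 0.13). The largest differences among well-read genes were in cytokines and chemokines: Ccl2 at 8.64 (SE 0.24), Il1b at 8.38 (SE 0.17), Tnf at 8.26 (SE 0.30) and Cxcl2 at 8.14 (SE 0.28). Bcl2a1b, a survival gene with near-identical copies that can share reads, differed by 8.41 (SE 0.26). Of the kinases of the core complex, Ikbkb was higher by 1.06 (SE 0.13) and Chuk, at -0.01 (SE 0.19), did not pass. Of 14 interferon response genes 12 were higher and 0 lower, and of 18 dissociation stress genes 9 were higher and 2 lower.

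Within the epithelium, each response gene tested but Cxcl16 differed less between named classes than between macrophage-like cells and epithelium. Cxcl16 differed by a log2 of 0.99 between alveolar type 1-like and tip-like cells, against 0.83 between macrophage-like cells and epithelium. For Icam1 these values were 0.80 and -0.40. Airway-like against tip-like cells had 8 of the 10 genes above the low-count filter, of which 2 were higher and 2 lower, with 36.6% of all genes called, 17.5% higher and 19.0% lower, so the share of response genes called (4 of 8) is near that of genes at large. Tnfaip2 and Tnfaip3 were too low to be tested, at 1 to 13 UMIs a library in these classes.

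Irf1 fell most from tip to airway. It stood at 20.9, 22.7 and 15.6 CPM in tip-like cells and 10.1, 8.94 and 10.2 CPM in airway-like cells, without overlap, a log2 difference of -1.04 (SE 0.17, adjusted p = 0.00711, edgeR). Nfkbia stood at 74.7, 72.0 and 153.7 CPM in tip-like and 54.4, 56.9 and 104.5 CPM in airway-like cells, lower in each library (log2 difference -0.53, SE 0.08, adjusted p = 0.00607, edgeR). Nfkb1 was higher in airway-like cells, at 20.4, 17.9 and 11.3 CPM against 12.1, 11.7 and 9.05 CPM (log2 difference 0.47, SE 0.14, adjusted p = 0.0429, edgeR). Cxcl16 was higher too, at 46.2, 46.6 and 31.1 CPM against 31.9, 34.4 and 22.4 CPM (log2 difference 0.40, SE 0.09, adjusted p = 0.0198, edgeR), and Icam1 by a log2 of 0.49 (SE 0.07, adjusted p = 0.00562).

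Nfkbiz (-0.34, SE 0.13), Relb (0.75, SE 0.30), Sod2 (0.15, SE 0.09) and Birc3 (-0.06, SE 0.31) did not pass. These calls lean on which libraries enter: without the Epcam+ library 7 of 8 genes passed, without Epcam+ Icam+ replicate 1 only 1, Irf1, and without replicate 2, 0. Calls over all genes moved as well, from 918 to 6224 with 1 library left out, against 4336 with all. Stress genes that dissociation is known to induce moved with this contrast as well: 10 of 18 were higher in airway-like cells and 1 lower, led by Egr1 at 2.48 (SE 0.23), Dusp1 at 1.72 (SE 0.24), Myc at 1.57 (SE 0.20) and Fosb at 1.49 (SE 0.09), and Gadd45b, an NF-kB target, differed by 1.30 (SE 0.14). Their part in the result was not tested. The 2 classes also differed between sorts. The surfactant gene Sftpc stood in tip-like cells at 16220 and 15210 CPM in the Epcam+ Icam+ libraries and 2846 CPM in the Epcam+ library. In airway-like cells Sftpc stood at 75.4, 185.7 and 1024 CPM.

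Alveolar type 1-like cells, named at this clustering only in the Epcam+ Icam+ libraries, were set against tip-like cells in those 2 libraries. Of 9 genes tested, 3 were higher and 1 lower, where 53.2% of all genes were called, 26.2% higher and 27.0% lower, so again no larger a share than genes at large. Cxcl16 was the clearest, at 65.7 and 67.7 CPM against 31.9 and 34.4 CPM in tip-like cells (log2 difference 0.99, SE 0.08, adjusted p = 6.97e-08, edgeR). Icam1 was highest in this class, at 250.1 and 251.1 CPM against 143.7 and 141.8 CPM (log2 difference 0.80, SE 0.04, adjusted p = 2.5e-09, edgeR). Across the 3 named classes of these libraries, Cxcl16 and Icam1 both stood lowest in tip-like, between in airway-like and highest in alveolar type 1-like cells, and in the Epcam+ library both were lower in tip-like than in airway-like cells.

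Relb was higher in alveolar type 1-like cells, at 7.39 and 7.02 against 4.12 and 2.20 CPM (log2 difference 1.18, SE 0.27, adjusted p = 0.0019, edgeR). Tnfaip3 was higher on 19 and 24 UMIs against 9 and 3 (log2 difference 1.51, SE 0.49, adjusted p = 0.0197, edgeR). Without Epcam+ Icam+ replicate 1 the Tnfaip3 difference was 2.76 and without replicate 2 it was 0.62, with no test. Neither Relb nor Tnfaip3 passed with DESeq2 (adjusted p = 0.122 and 0.283) or at the finer clustering, where the Epcam+ library entered too (adjusted p = 0.196 and 0.417). Irf1 was lower, at 11.7 and 12.7 against 20.9 and 22.7 CPM (log2 difference -0.85, SE 0.12, adjusted p = 5.37e-05, edgeR), and missed the threshold at the finer clustering too (-0.55, adjusted p = 0.118). Nfkbia, at 73.3 and 70.8 against 74.7 and 72.0 CPM, differed by -0.04 (95% interval -0.17 to 0.10). With doublets kept it was higher, by 0.40 (SE 0.12, adjusted p = 0.0187, edgeR). Of the lists, inhibitors had 7 of 10 tested genes higher and 0 lower, kinases 3 of 5 and 0, further subunits 1 of 3 and 0, receptors and adaptors 2 of 11 and 2, and other targets 7 of 17 and 5, beside the shares over all genes given above. The stress list again moved with the class, 11 of 18 higher and 2 lower, with Egr1 at 2.54 (SE 0.07), Myc at 1.69 (SE 0.11), Dusp1 at 1.33 (SE 0.08) and Hsph1 at -1.12 (SE 0.10), and Klf6, on the list of other targets, at 0.88 (SE 0.03). The part of stress genes in this contrast was not tested.

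The question nearest to the sort is whether epithelial cells with more Icam1 RNA hold more of the response genes. Each cell was thinned to 3000 UMIs, so that depth was equal, and cells with at least 1 Icam1 UMI were set against cells with none inside each library. In the epithelium this split gave 907, 798 and 886 cells with an Icam1 UMI and 1260, 1144 and 1517 without. None of the 7 response genes that could be tested passed, and 1, Cxcl16, had an unadjusted p under 0.05. Of all 10618 genes tested, 46 (0.433%) passed the adjusted threshold, 27 higher and 19 lower. With DESeq2 2 genes passed, neither of them a response gene.

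Nfkbia stood at 63.5, 60.0 and 112.7 CPM in cells without an Icam1 UMI and 66.2, 59.3 and 106.5 CPM in cells with one, a log2 difference of -0.04 (SE 0.07, 95% interval -0.19 to 0.11). The order of the groups changed between libraries. Sod2 stood at 89.2, 85.7 and 78.7 CPM without and 81.2, 92.7 and 75.2 CPM with, a difference of -0.04 (95% interval -0.19 to 0.11). For Nfkbiz the difference was 0.00 (95% interval -0.23 to 0.24), for Nfkb1 -0.01 (-0.38 to 0.37), for Irf1 -0.22 (-0.57 to 0.12) and for Relb 0.09 (-0.53 to 0.70). For the well-read genes Nfkbia and Sod2, the interval for this draw of UMIs reaches no further than 0.19 on the log2 scale in either direction. It does not cover the spread between random draws.

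Cxcl16 was the response gene that came nearest. It stood at 43.6, 45.8 and 26.6 CPM in cells without an Icam1 UMI and 55.5, 50.5 and 34.2 CPM in cells with one, higher in 3 of 3 libraries, with a log2 difference of 0.27 (SE 0.10, 95% interval 0.06 to 0.48, adjusted p = 0.345, edgeR). Thinned to 5000 UMIs the difference was 0.37 and passed (adjusted p = 0.0219), and with cells matched by cluster it was 0.14 (adjusted p = 0.963). In cells with 2 or more Icam1 UMIs Cxcl16 stood at 68.6, 51.3 and 43.5 CPM. Tnfaip3, Tnfaip2 and Birc3 had 1 to 8 UMIs on each side of the split in each library, too few for a test.

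The split parts Icam1 levels only in part. In the UMIs not drawn, which the split did not use, Icam1 was 1.31, 1.31 and 1.51 times as high in cells with an Icam1 UMI as in cells without, so the split compared groups that differed in Icam1 by this narrow margin. In tip-like cells the ratio was 1.29, 1.15 and 1.39, in airway-like cells 1.42, 1.44 and 1.55, and in alveolar type 1-like cells 1.23 and 1.23.

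**Figure D2:**
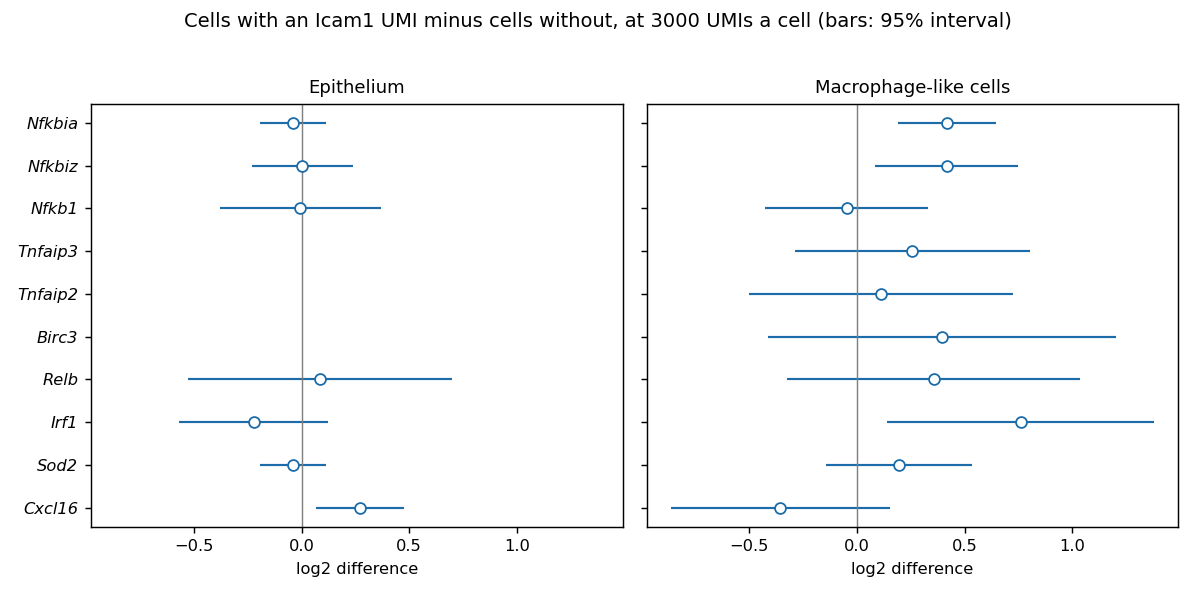
Log2 difference of each response gene between cells with and without an Icam1 UMI at 3000 UMIs a cell, in epithelium (left) and macrophage-like cells (right), with 95% intervals. Open circles did not pass the threshold, and a gene without a point was not tested. In the epithelium Nfkbia, Nfkbiz, Nfkb1 and Sod2 lie within 0.05 of 0 and Cxcl16 is at 0.27, and in macrophage-like cells Nfkbia and Nfkbiz are both at 0.42.

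Genes outside the list did differ between epithelial cells with and without an Icam1 UMI. Higher with Icam1 were Il10rb, a subunit of the interleukin-10 receptor (log2 difference 0.62, SE 0.13), Tagln, an actin-binding protein (0.53, SE 0.08), Lmo7 (0.42, SE 0.07), the alveolar type 1 gene Clic3 (0.41, SE 0.08), Copb1 (0.35, SE 0.08) and Gprc5a (0.33, SE 0.05). Lower were the surfactant gene Sftpa1 (-0.62, SE 0.13), the mitotic gene Cdc20 (-0.52, SE 0.09) and Dlk1, a Notch-related gene of immature cells (-0.40, SE 0.04). Of the pathway lists, 1 of 15 other targets tested was higher, Klf6 (0.19, SE 0.03), as were 3 of 17 stress genes, Atf3 (0.20, SE 0.04), Jun (0.13, SE 0.03) and Jund (0.13, SE 0.03), and 0 of 9 receptors and adaptors, 5 kinases, 3 further subunits and 8 inhibitors. With cells matched by cluster 1 gene passed, Ccn1, a matrix protein (0.17, SE 0.03), chosen here after its value was seen.

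Inside the epithelial classes no response gene passed. Tip-like cells had 0 of 5 response genes and 0 of 5847 genes called (0.0%, edgeR), with 258 at an unadjusted p under 0.05 and 0 with DESeq2. Nfkbia differed there by -0.12 (95% interval -0.49 to 0.24) and Sod2 by -0.08 (-0.48 to 0.33). Airway-like cells had 0 of 4 response genes among 35 of 6159 genes called (0.568%, edgeR, 1 with DESeq2), with 0 of the 4 at an unadjusted p under 0.05, and Nfkbia at 0.06 (95% interval -0.36 to 0.49). Alveolar type 1-like cells had 0 of 5 response genes and 0 of 6523 genes called (0.0%, edgeR), with 339 at an unadjusted p under 0.05 and 0 with DESeq2, and Cxcl16 at 0.35 (95% interval -0.08 to 0.78). The interval of each response gene tested in these classes spanned 0. These intervals rest on 1 draw of UMIs. With another random seed Nfkbia in airway-like cells was at -0.39, outside its interval. Irf1 in alveolar type 1-like cells was at 0.72, outside its interval of -1.32 to 0.68. Neither passed, and the other response genes tested in both classes stayed inside their intervals.

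Over single cells at equal depth, the correlation of a response gene with Icam1 within a library lay between -0.024 and 0.057 in the epithelium (Pearson, 21 values for genes with a UMI in at least 20 cells, over 1942 to 2403 cells), and Spearman's rho between -0.030 and 0.055. The highest was Cxcl16, at 0.057, 0.012 and 0.047. In tip-like cells the range was -0.080 to 0.105, in airway-like cells -0.072 to 0.057 and in alveolar type 1-like cells -0.058 to 0.066. These are descriptions of sparse counts from cells that share a library, and values this weak are no finding.

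Macrophage-like cells were split the same way into 102, 102 and 37 cells with an Icam1 UMI and 387, 339 and 74 without. There 0 of 10 response genes passed (edgeR, 0 with DESeq2), where 6 of 4355 genes (0.138%) passed, all 6 higher. At an unadjusted p under 0.05 were 3 of the 10 response genes. The share of all genes at that looser threshold is not given here. Nfkbia stood at 339.4, 356.9 and 459.5 CPM without and 385.6, 568.6 and 657.7 CPM with an Icam1 UMI, higher in 3 of 3 libraries, a log2 difference of 0.42 (SE 0.11, 95% interval 0.19 to 0.64, adjusted p = 0.162, edgeR). Nfkbiz stood at 176.6, 160.3 and 139.6 against 202.6, 232.0 and 261.3 CPM, also higher in 3 of 3 libraries (0.42, SE 0.16, adjusted p = 0.585, edgeR). Irf1 differed by 0.76 (SE 0.31, adjusted p = 0.609). The median over the 10 genes was 0.31, against -0.01 over all genes tested, and Cxcl16 lay the other way at -0.36 (SE 0.25).

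At 5000 UMIs a cell Nfkbia (0.47, adjusted p = 0.00344, edgeR) and Nfkbiz (0.52, adjusted p = 0.0252) passed, and in macrophage-like cells without an epithelial UMI, compared in the 2 Epcam+ Icam+ libraries, Nfkbia passed (0.66, adjusted p = 0.00883). With another random seed for thinning, neither did (0.11 and 0.74). Of the pathway lists 1 gene was called, the chemokine Cxcl2 (0.37, SE 0.07). Epcam stood at 113.7, 94.4 and 351.4 CPM in macrophage-like cells without an Icam1 UMI and 151.2, 119.0 and 318.8 CPM in those with exactly 1. The part of carried epithelial RNA was not tested beyond the subset without such UMIs. Whether the epithelial and macrophage splits differ was not tested. Icam1 in the UMIs not drawn was 1.69, 1.77 and 1.87 times as high on the side with Icam1, each above the epithelial ratios, and 1.95 and 1.32 times in the Epcam+ Icam+ macrophage-like cells without an epithelial UMI.

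Correlations with Icam1 over macrophage-like cells ran from -0.104 to 0.277 (23 values). Nfkbia gave 0.063, 0.156 and 0.277 over 489, 441 and 111 cells, and Nfkbiz 0.066, 0.127 and 0.176. Cells of a library share its depth and carried RNA, so these too are descriptions.

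**Figure D3:**
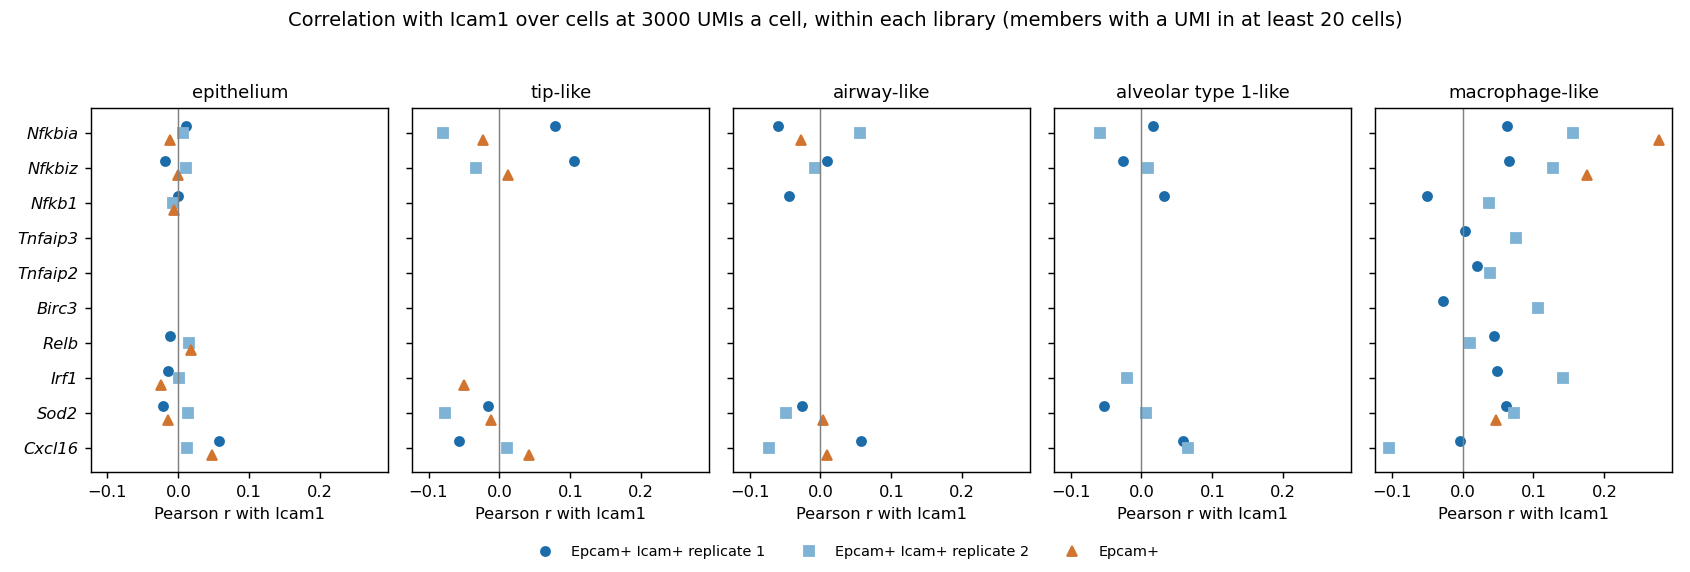
Pearson correlation of each response gene with Icam1 over cells thinned to 3000 UMIs (x axis), by class (panels), with 1 point per library for genes with a UMI in at least 20 cells. Points in the epithelium lie between -0.024 and 0.057, and in macrophage-like cells Nfkbia and Nfkbiz lie above 0 in each library.

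Between the sorts, the response genes of the epithelium did not move as a group. With 1 Epcam+ library, the spread between Epcam+ libraries could not be measured, and the SEs and p-values below leave it out. The make-up of the epithelium differed between sorts too. Tip-like cells were 225 of 2247 and 226 of 2030 in the Epcam+ Icam+ libraries and 700 of 2568 in the Epcam+ library. The part of this make-up in the contrast was not tested. Against the Epcam+ library, the Epcam+ Icam+ libraries had 5 of 10 genes higher and 1 lower (edgeR, 1 residual degree of freedom), where 78.3% of all genes tested differed, 39.1% higher and 39.2% lower, so the 6 of 10 is no more than genes at large. The median log2 difference of the 10 genes was 0.42 and that of all 14787 genes 0.02.

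Nfkbia and Nfkbiz, which both encode proteins of the IkB family, went in opposite directions by similar amounts. Nfkbia, at 68.1 and 67.0 against 122.3 CPM, was lower in Epcam+ Icam+ epithelium by a log2 of -0.98 (SE 0.03, adjusted p = 2.16e-16, edgeR), and Nfkbiz, at 43.7 and 41.3 against 19.5 CPM, was higher by 0.99 (SE 0.05, adjusted p = 3.02e-13, edgeR). The same directions held in tip-like and airway-like cells taken alone: Nfkbia in tip-like cells stood at 74.7 and 72.0 against 153.7 CPM and in airway-like cells at 54.4 and 56.9 against 104.5 CPM, and Nfkbiz at 49.98 and 44.9 against 21.0 CPM and at 33.8 and 39.8 against 20.1 CPM. With cells of at least 3000 UMIs alone the differences were -0.99 and 0.99.

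Cxcl16 was higher by 0.59 (SE 0.04, adjusted p = 2.89e-11), Nfkb1 by 0.36 (SE 0.08, adjusted p = 0.00038), Relb by 0.49 (SE 0.13, adjusted p = 0.00143) and Tnfaip3 by 1.49 (SE 0.23, adjusted p = 6.11e-06), all by edgeR. Relb missed the threshold with DESeq2 (adjusted p = 0.121). Sod2 (0.02, 95% interval -0.05 to 0.08), Irf1 (-0.08, -0.24 to 0.08), Birc3 (-0.03, -0.52 to 0.45) and Tnfaip2 (0.48, -0.32 to 1.28) did not pass. Icam1 RNA itself was higher by 0.13 (SE 0.03). Class values did not all follow the pooled ones. Tnfaip3 stood at 0.87 and 1.14 against 0.87 CPM in airway-like cells, on 5, 6 and 10 UMIs. In tip-like cells it stood at 1.43 and 0.44 against 0.58 CPM, and in unnamed epithelial cells at 2.12 and 1.87 against 0.53 CPM. Irf1 stood at 20.9 and 22.7 against 15.6 CPM in tip-like cells and 10.1 and 8.94 against 10.2 CPM in airway-like cells. In unnamed epithelial cells Irf1 stood at 13.7 and 14.7 against 14.0 CPM.

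Upstream of these genes, 5 of 7 kinases were higher and 0 lower, among them Ikbkb (0.66, SE 0.08), Chuk (0.58, SE 0.07) and Map3k7, also called TAK1 (1.12, SE 0.06). Rel (1.76, SE 0.12), Nfkb2 (0.95, SE 0.10) and Rela (0.24, SE 0.05) were all higher. Of 24 other targets tested 14 were higher and 4 lower, with Gadd45b at 1.47 (SE 0.04), Ier3 at 1.37 (SE 0.03) and Sdc4 at 1.24 (SE 0.04). Of 18 stress genes 9 were higher, Egr1 by 1.30 (SE 0.04), and 8 lower. With 78.3% of genes called, these counts say little about the pathway, and sort, software, gene table and barcode set cannot be told apart.

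In macrophage-like cells the same contrast had 8 of 10 response genes higher in Epcam+ Icam+ libraries and 1 lower, where 58.2% of all genes were called, 30.7% higher and 27.5% lower. Nfkb1 stood at 183.4 and 186.1 against 47.2 CPM (log2 difference 2.06, SE 0.10), Cxcl16 at 91.6 and 93.9 against 29.2 CPM (1.76, SE 0.12) and Tnfaip3 at 55.0 and 62.8 against 12.4 CPM (2.33, SE 0.17). Tnfaip2 was higher by 1.34 (SE 0.16), Birc3 by 1.22 (SE 0.18), Relb by 1.03 (SE 0.17), Sod2 by 0.80 (SE 0.08) and Nfkbiz by 0.33 (SE 0.09), Nfkbia was lower by -0.25 (SE 0.08), and Irf1 (0.23, SE 0.15) did not pass. Icam1 was lower, by -0.47 (SE 0.09). Of 26 other targets tested 22 were higher and 1 lower, with Csf1 at 3.43 (SE 0.21), Plau at 3.25 (SE 0.17), Ptgs2 at 2.86 (SE 0.23), Cxcl1 at 2.79 (SE 0.11) and Cxcl2 at 2.72 (SE 0.10). Of 6 ligands tested 2 were higher and 3 lower, the latter Il1b (-1.42, SE 0.08), Ltb (-1.35, SE 0.50) and Tnf (-0.51, SE 0.13), named after their values were seen. Kinases had 6 of 7 higher and 0 lower, further subunits 3 of 3 higher, inhibitors 8 of 12 higher and 1 lower, receptors and adaptors 6 of 15 higher and 2 lower, and dissociation stress genes 7 of 18 higher and 3 lower. The part of stress genes in this contrast was not tested.

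Epcam RNA, at 399.0 CPM, was highest in macrophage-like cells of the Epcam+ library. Among macrophage-like cells without an epithelial UMI, only 23 in the Epcam+ library, values stayed higher for Nfkb1 (1.46), Tnfaip3 (1.85), Tnfaip2 (2.38), Sod2 (0.65) and Cxcl16 (1.96). The share of all genes that moved in this subset is not given here, so these values are not set against genes at large. Birc3 (0.38, adjusted p = 0.453) and Relb (0.82, adjusted p = 0.096) no longer passed, Nfkbia was lower by -1.02 (SE 0.10), and Nfkbiz turned to lower, by -0.64 (SE 0.14, adjusted p = 0.000669, edgeR).

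The difference of the sort contrast between the cell types was tested directly, with library as a block. 6 of 10 response genes passed, 1 higher and 5 lower in epithelium relative to macrophages, where 26.5% of all genes passed, 8.22% higher and 18.3% lower. The sort difference of Nfkb1 was lower in epithelium by -1.78 (SE 0.13, adjusted p = 8.44e-07, edgeR), of Birc3 by -1.34 (SE 0.34, adjusted p = 0.0105), of Cxcl16 by -1.26 (SE 0.14, adjusted p = 2.61e-05), of Sod2 by -0.87 (SE 0.09, adjusted p = 1.36e-05) and of Nfkbia by -0.81 (SE 0.10, adjusted p = 7.89e-05). That of Nfkbiz was higher by 0.59 (SE 0.13, adjusted p = 0.00481). Against macrophage-like cells without an epithelial UMI, Nfkbia (-0.04, adjusted p = 0.925) and Birc3 (-0.50, adjusted p = 0.698) lost the call. Of the other pathway genes, Cxcl1 (-2.62, SE 0.15), N4bp1 (-1.58, SE 0.18), Nfkb2 (-1.39, SE 0.22) and Bcl2l1 (-1.37, SE 0.15) were lower, as was the stress gene Fos (-1.74, SE 0.08).

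**Figure D4:**
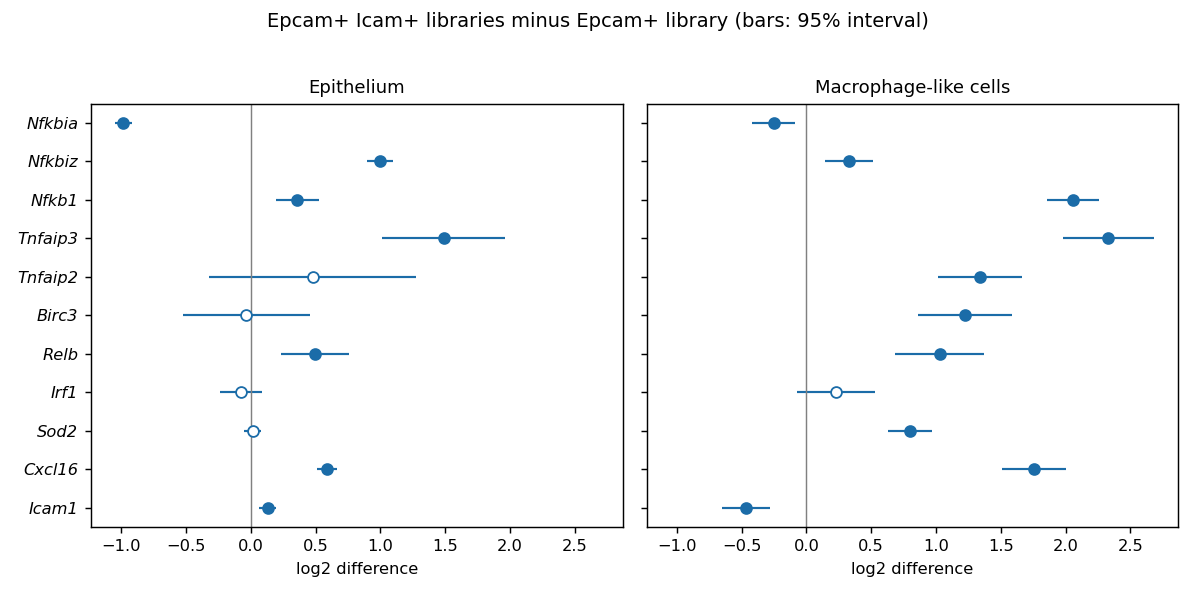
Log2 difference of each response gene and Icam1 between the 2 Epcam+ Icam+ libraries and the Epcam+ library, in epithelium (left) and macrophage-like cells (right), with 95% intervals. Filled circles passed the threshold. In epithelium Nfkbia lies at -0.98 and Nfkbiz at 0.99, and in macrophage-like cells Nfkb1, Tnfaip3 and Cxcl16 lie at 1.76 or above.

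Levels were compared across 14 sums of a library and a class with at least 50 cells, 3 of them macrophage-like. The classes were tip-like, airway-like, alveolar type 1-like, unnamed epithelial and macrophage-like cells. The genes most like Nfkbia in level were Shisa5 (Pearson r = 0.989), Tpst2 (0.988), Ppt1 (0.986), Gnai2 (0.985), Rac1 (0.985), Ap2s1 (0.984), Ctsa (0.982), Rbfa (0.982), Cotl1 (0.981) and Cndp2 (0.980), and none is a response gene. Of the response genes Birc3 (0.877) and Tnfaip2 (0.868) were nearest, then Irf1 (0.813), Tnfaip3 (0.808), Nfkb1 (0.773), Sod2 (0.719), Relb (0.702) and Nfkbiz (0.701), with Cxcl16 at 0.155 and Icam1 at -0.695. The sums share libraries, and 3 of the 14 are the macrophage-like sums, whose levels stand far from the rest. The Lyz2 and S100a4 cluster, of 121 and 128 cells, was not among the sums. Nfkbia stood at 268.6 and 247.0 CPM in it. Mesenchyme-like cells, 54 in replicate 2, were not among the sums either.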

How the data were processed

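The files hold the UMI counts per gene and barcode that the authors deposited for 3 libraries. The submitters' processing notes name Cell Ranger 2.1.1 and mm10. The headers of the matrices differ and name version 5.0.1 for both Epcam+ Icam+ libraries but 3.0.2 for the Epcam+ library. Gene tables held 32285 and 31053 genes, joined by Ensembl ID. The annotation and the barcode threshold behind the files: not given in the sources used here. Every barcode held at least 500 UMIs.

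Barcodes were kept with at least 1000 UMIs, 500 genes and at most 10% mitochondrial UMIs. The doublet caller of scanpy marked 0 barcodes, so the highest-scoring 129, 115 and 88 were left out at a fixed 0.8% per 1000 barcodes. Free RNA was not removed. Cells were clustered within each sort (scanpy 1.11.5, 2000 variable genes, 30 components, 15 neighbours, Leiden resolution 1, seed 1) without the 10 genes, Icam1, Epcam, pathway, mitochondrial and ribosomal genes and with cell cycle scores regressed out. A class name needed 3 markers and 40% of a list raised by a log2 of 0.5 (pseudocount 5 CPM). Clustering within sorts, the cell cycle step, the 40% rule and the reading of tip and surfactant markers as 1 list were chosen after seeing the data. Epithelium pools named and unnamed epithelial clusters.

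UMIs were summed by library and class and tested with edgeR 4.0.16 (quasi-likelihood F test, TMM, filterByExpr, Benjamini-Hochberg at 0.05, R 4.3.3). CPM values are a class's UMIs scaled to the same total, and their Poisson intervals cover counting error only. Icam1 comparisons used cells thinned to 3000 UMIs without replacement. Shallower cells, 80, 88 and 165 in the epithelium and 10, 22 and 3 among macrophage-like cells, did not enter. Intervals are 95%. Members, lists and tests were chosen with earlier results of these data known. Beside the 10 genes and Icam1, the text names pathway genes past the threshold in the epithelial Icam1 comparison, the 5 with the largest difference (mean at least 20 CPM) in each other comparison, the 10 largest changes of the epithelial Icam1 comparison with the same direction in each library (1 of them is not reported here), and the 10 genes most like Nfkbia (mean at least 20 CPM). Further subunits and kinases outside this rule were named after their values were seen. The scripts were tested on simulated data. Alternatives were RLE scaling, no low-count filter, DESeq2 1.42.0, each library left out, finer clustering, the lists among the clustering genes, doublets kept, thinning to 2000 or 5000 UMIs or with another seed, 2 or more Icam1 UMIs, cells matched by cluster, cells without UMIs of the other cell type and, added after seeing the data, macrophage-like cells without an epithelial UMI and cells of at least 3000 UMIs.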

Additional observations from a re-analysis of the deposited data

Results flagged for a closer look

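The sort contrast (Epcam+ Icam+ minus Epcam+) of 6 response genes differed between epithelium and macrophage-like cells in a direct test (edgeR's quasi-likelihood F test). The difference was -1.78 (log2) for Nfkb1, which was higher by 0.36 in epithelium and 2.06 in macrophage-like cells. It was -1.34 for Birc3, -1.26 for Cxcl16, -0.87 for Sod2, -0.81 for Nfkbia and 0.59 for Nfkbiz. With macrophage-like cells that held no epithelial UMI, the values for Nfkb1 (-1.18), Cxcl16 (-1.46), Sod2 (-0.71) and Nfkbiz (1.56) passed again, and those for Nfkbia (-0.04) and Birc3 (-0.50) did not. The Epcam+ library then rests on 23 cells.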

How the results depend on the processing

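Of the single-gene values under the alternatives run, 950 kept direction and side of the threshold (or missed it both times, 80 of these with another sign), 30 newly passed, 32 no longer passed, 31 without a test moved by more than 1 SE and 3 reversed. Of the counts, 177 stayed within 1.5 times and 57 did not, and the cause was not tested. The reversals were Nfkbiz between sorts in macrophages without an epithelial UMI (-0.64) and, with doublets kept, Tnfaip2 in the difference of sort contrasts (1.76) and Nfkbia between alveolar type 1-like and tip-like cells (0.40).

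Genes called between sorts in macrophages were 7376, but 4248 with DESeq2 and 3181 without epithelial UMIs. For the difference of sort contrasts they were 3965, but 1165 with DESeq2, 1195 without epithelial UMIs in macrophages and 1305 without UMIs of the other type in both. Between alveolar type 1-like and tip-like cells they were 6173, but 2659 with DESeq2, 1305 at Leiden resolution 2 (where all 3 libraries entered) and 2180 with doublets kept, and response genes called were 4, but 2 with DESeq2 and 1 at resolution 2. Between airway-like and tip-like cells 2 response genes passed with doublets kept.

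For the Icam1 comparison in epithelium, genes called were 46, but 85 with no filter, 2 with DESeq2, 89 with doublets kept, 146 at 5000 UMIs, 82 for 2 or more Icam1 UMIs and 1 with cells matched by cluster, and response genes called were 0, but 1 with doublets kept and 1 at 5000 UMIs. In tip-like cells genes called were 0, but 1 with no filter, 3 with the lists among the clustering genes and 3 at 5000 UMIs. In airway-like cells they were 35, but 1 with DESeq2, 8 at resolution 2, 13 with the lists among the clustering genes, 4 with doublets kept, 17 at 2000 UMIs and 17 at 5000 UMIs. In alveolar type 1-like cells they were 0, but 5 with no filter, 2 at resolution 2, 4 with the lists among the clustering genes, 1 with doublets kept, 2 at 2000 UMIs, 1 at 5000 UMIs and 3 for 2 or more Icam1 UMIs. In macrophages they were 6, but 10 with RLE scaling, 38 with no filter, 0 with DESeq2, 3 at resolution 2, 59 at 5000 UMIs and 1 with another seed, and response genes called were 0, but 2 at 5000 UMIs and 1 without epithelial UMIs.

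With 1 library left out in turn, genes called ranged from 918 to 6224 between airway-like and tip-like cells (4336 with all; response genes 0 to 7), from 3680 to 11009 between macrophages and epithelium (7789 with all; response genes 9 to 10), and, for the Icam1 comparison, from 29 to 46 in epithelium, 0 to 1 in tip-like cells, 3 to 13 in airway-like cells and 0 to 8 in macrophages. Without Epcam+ Icam+ replicate 1, replicate 2 and the Epcam+ library in turn, the counts were 1403, 918 and 6224 between airway-like and tip-like cells, 3680, 4283 and 11009 between macrophages and epithelium, and, for the Icam1 comparison, 8, 13 and 3 in airway-like cells and 8, 1 and 0 in macrophages. No paired analysis was possible because, for the sort contrasts, the Epcam+ library carries no replicate number in the labels. The comparisons within libraries hold the library as a block throughout. Leaving out an Epcam+ Icam+ library from a sort contrast, or either library from the alveolar type 1-like contrasts, left no residual degrees of freedom, so those are values with no test. The Epcam+ library could not be left out of the sort contrasts.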

Other observations

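In the Epcam+ Icam+ libraries a cluster led by Lyz2 and S100a4, with Ccr2 and S100a8 among its leading genes, held 121 and 128 cells and was kept apart from the macrophage-like cells. Tnfaip2 stood at 69.9 and 106.9 CPM in it, against 50.2 and 61.1 CPM in macrophage-like cells of the same libraries, and Sod2 at 253.0 and 226.6 CPM against 187.9 and 199.1 CPM. Nfkbiz stood at 34.8 and 27.6 CPM against 163.9 and 189.8 CPM, Irf1 at 10.9 and 11.8 CPM against 31.5 and 36.8 CPM, Cxcl16 at 32.3 and 28.6 CPM against 91.6 and 93.9 CPM, and Icam1 at 33.9 and 28.6 CPM against 97.6 and 112.1 CPM. Nfkbia stood at 268.6 and 247.0 CPM against 331.7 and 395.0 CPM, Nfkb1 at 112.4 and 106.0 against 183.4 and 186.1 CPM, Tnfaip3 at 31.3 and 27.9 against 55.0 and 62.8 CPM, Relb at 13.7 and 15.8 against 30.1 and 30.1 CPM, and Birc3 at 23.3 and 24.0 against 28.3 and 28.6 CPM. Of the response genes, Tnfaip2 and Sod2 were thus at higher values in the Lyz2 and S100a4 cluster in both libraries and the others at lower values. The clusters were defined from the same cells, and no test was made.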
